A study of Mus musculus with 8 samples.

Results

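The 6 connexin genes that make up the gap junctions of the heart and of its vessels were examined in fetal hearts with and without type 3 deiodinase. They were *Gja1*, *Gja3*, *Gja4*, *Gja5*, *Gjc1* and *Gjd3*, 6 of the 26590 gene symbols in the table. They were taken by gene symbol and not by a measured value. The list itself was drawn up with earlier results of these data known. Where a gene had several transcript rows, the row with the highest average of both genotype means was used. All 6 genes were in the table. Of these, 5 passed the limit for testing, a mean above 1 RPKM (reads scaled to transcript length and library size) in at least 1 genotype, and *Gjd3* did not.

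RNA was sequenced from hearts of 4 *Dio3*+/+ (wild-type) and 4 *Dio3*-/- fetuses on a C57BL/6J background, each library from a single mouse. The *Dio3* deficiency was present in the whole animal, so these hearts developed in a body that lacks the enzyme everywhere. Type 3 deiodinase inactivates thyroid hormones, and the comparison addressed the effect of fetal thyroid hormone excess on the heart. All 8 titles give E13.5. The age entry, however, reads E18.5 for 2 of the 4 *Dio3*-/- hearts, and the study's methods name E14.5. The table holds a mean and a coefficient of variation (CV, the SD divided by the mean) for each genotype, and no value for a single heart. The 2 hearts with the E18.5 entry could therefore not be set aside, and age and genotype cannot be told apart for them.

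Several facts about the libraries bear on the values below. *Dio3* itself was near the floor, at an average of 0.35 RPKM (CV 1.23) in wild-type and 0.13 RPKM (CV 0.76) in *Dio3*-/- hearts, and was not tested. The series is described as male, whereas *Xist*, transcribed from the inactive X chromosome, averaged 35.64 RPKM (CV 0.99) in wild-type and 39.97 RPKM (CV 0.55) in *Dio3*-/- hearts. The Y-linked *Eif2s3y* averaged 9.38 RPKM (CV 1.04) and 7.29 RPKM (CV 1.46). The summed level of 6 erythroid markers was 37274.2 RPKM in wild-type and 12746.3 RPKM in *Dio3*-/- hearts. That of 8 hepatocyte markers was 22.26 and 120.44 RPKM. The part of sex and of these other cells in the connexin values was not tested.

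Connexins are membrane proteins that assemble in sixes into a hemichannel, and a hemichannel of one cell docks with that of its neighbor to form a gap junction channel. In the heart these channels carry the action potential from cell to cell. Connexin 43 (*Gja1*) is the main connexin of working ventricular myocardium, connexin 40 (*Gja5*) serves atrial muscle, the ventricular conduction system and arterial endothelium, and connexin 45 (*Gjc1*) is expressed from the earliest heart tube on and persists in nodal tissue. Connexin 37 (*Gja4*) is a connexin of endothelium, connexin 46 (*Gja3*) is best known from the lens, and connexin 30.2 (*Gjd3*) slows conduction in the mouse atrioventricular node.

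None of the cardiac connexins passed the test between genotypes. Of the 5 tested genes, 0 were called (adjusted *P* under 0.05, limma with Benjamini-Hochberg adjustment), against 2.29% of all 14657 genes tested (1.91% of all genes higher and 0.382% lower in *Dio3*-/- hearts). At an unadjusted *P* value under 0.05 the count was 1 gene, *Gja1*, against 19.7% of all genes. A test of the same summaries with separate, unmoderated variances also called 0 of the 5, with 1 at an unadjusted *P* value under 0.05. The mean was higher in *Dio3*-/- hearts for all 5 tested genes and for *Gjd3*, as it was for 63.3% of all genes tested. The median log2 fold change was 0.13 over the 5 connexins and 0.04 over all genes tested.

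*Gja1* was the most abundant connexin in both genotypes. It averaged 125.81 RPKM ± 12.6 (SD, n = 4) in wild-type and 147.29 RPKM ± 8.84 (SD, n = 4) in *Dio3*-/- hearts, a mean 17.1% higher without the deiodinase. Because no value among 4 can lie more than 1.5 SDs from their mean, each *Dio3*+/+ heart lay between 107 and 145 RPKM and each *Dio3*-/- heart between 134 and 161 RPKM. These limits overlap, so it is not known whether every *Dio3*-/- heart was above every *Dio3*+/+ heart. These and all later limits use the CVs as given, and their rounding error of up to 0.005 could widen the limits slightly. The log2 fold change was 0.23 (SE 0.08, 95% interval 0.06 to 0.40) with an adjusted *P* of 0.144 by limma with Benjamini-Hochberg adjustment. The interval reaches from a 1.04-fold to a 1.32-fold higher level. With its own error, *Gja1* would have needed a 1.27-fold difference to be called.

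Only 512 of all genes tested had a higher mean than *Gja1* in *Dio3*+/+ hearts, and 1094 had a higher mean than *Gja5*. The promoters of these 2 most abundant connexins are shown as the sequence beside their levels, each the 250 bases before the transcription start in RefSeq (GRCm38.p6), written 5′ to 3′ in the direction of the gene. That of *Gja1* lies at chr10:56377050-56377299 on the plus strand and that of *Gja5* at chr3:97032152-97032401 on the plus strand. Capitals mark matches to the motifs searched.
Gja1: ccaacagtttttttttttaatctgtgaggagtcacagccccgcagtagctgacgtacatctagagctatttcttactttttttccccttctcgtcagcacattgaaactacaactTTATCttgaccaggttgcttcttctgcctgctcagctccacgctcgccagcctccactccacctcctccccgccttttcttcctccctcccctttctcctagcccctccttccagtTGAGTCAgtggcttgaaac
Gja5: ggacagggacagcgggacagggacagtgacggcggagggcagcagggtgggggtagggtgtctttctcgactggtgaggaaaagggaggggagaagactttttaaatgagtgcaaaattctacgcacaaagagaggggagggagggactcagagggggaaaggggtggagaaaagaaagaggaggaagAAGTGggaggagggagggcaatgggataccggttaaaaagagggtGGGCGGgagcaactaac

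The motifs searched on both strands were AGGTCA, the core bound by thyroid hormone receptors, GGTGTG for T-box factors, AAGTG for NK2 homeobox factors, GATAA for GATA factors, GGGCGG for the GC box and TGANTCA for AP-1. The *Gja1* promoter held GATAA on its reverse strand from 135 bases before the start, and TGANTCA from 19 bases before it. Among 32851 promoters of the same length, 22.6% held GATAA and 6.75% held TGANTCA. The *Gja5* promoter held AAGTG from 62 bases before the start (40.7% of all promoters) and GGGCGG from 17 bases before it (32.7%). Promoters were found for 4 of the 6 genes. That of *Gja4* held GGGCGG from 79 bases before its start, and neither of the 2 promoters of *Gja3* held any motif. None of these windows held AGGTCA (14.0% of all promoters) or GGTGTG (16.3%). *Gjc1* and *Gjd3* were not matched. A match describes the letters of the window only.

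*Gja5* averaged 61.25 RPKM (CV 0.09) in wild-type and 67.20 RPKM (CV 0.06) in *Dio3*-/- hearts, a 9.71% higher mean. Single hearts lay between 53.0 and 69.5 RPKM in wild-type and between 61.2 and 73.2 RPKM in *Dio3*-/-. The ranges overlap over much of their length. On the log2 scale the difference was 0.13 (SE 0.07, 95% interval -0.03 to 0.29), with an adjusted *P* of 0.357 by limma. As a ratio, the interval runs from 0.982 to 1.22.

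*Gjc1* was the connexin with the smallest replicate spread in *Dio3*+/+ hearts. It averaged 22.67 RPKM (CV 0.03) in wild-type and 24.06 RPKM (CV 0.04) in *Dio3*-/- hearts, a 6.13% higher mean. Only 3.41% of all genes tested had a lower CV in *Dio3*+/+ hearts. Single hearts lay between 21.6 and 23.7 RPKM against 22.6 and 25.5 RPKM, so overlap was possible here too. This is a log2 fold change of 0.08 (SE 0.05, 95% interval -0.02 to 0.19), with an adjusted *P* of 0.373 by limma. Its error was small enough that a 1.16-fold difference would have been called.

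*Gja4* averaged 9.94 RPKM (CV 0.11) in wild-type and 10.65 RPKM (CV 0.03) in *Dio3*-/- hearts. The *Dio3*+/+ hearts lay between 8.30 and 11.6 RPKM, and this range contains that of the *Dio3*-/- hearts, 10.2 to 11.1 RPKM. The log2 fold change was 0.09 (SE 0.07, 95% interval -0.07 to 0.26, adjusted *P* = 0.544 by limma).

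*Gja3* was low but above the limit, at 3.95 RPKM (CV 0.09) in wild-type and 4.52 RPKM (CV 0.18) in *Dio3*-/- hearts. The *Dio3*+/+ hearts lay between 3.42 and 4.48 RPKM and the *Dio3*-/- hearts between 3.30 and 5.74 RPKM. The wider range of the *Dio3*-/- hearts contains that of the controls. On the log2 scale the difference was 0.17 (SE 0.12, 95% interval -0.08 to 0.43, adjusted *P* = 0.467 by limma), and a 1.45-fold difference would have been needed for a call. Markers of lens fibre cells were near 0, with none of 8 above the limit and a summed level of 1.23 RPKM in wild-type and 1.19 RPKM in *Dio3*-/- hearts.

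*Gjd3* averaged 0.54 RPKM (CV 0.20) in wild-type and 0.79 RPKM (CV 0.25) in *Dio3*-/- hearts, and single hearts lay between 0.378 and 0.702 RPKM and between 0.494 and 1.09 RPKM. The ranges overlap. When all rows were tested without a lower limit, its log2 fold change was 0.31 (SE 0.12) with an adjusted *P* of 0.287 by limma. The scale log2(RPKM + 0.5), used for every fold change here, understates the ratio of genes as low as this one.

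**Figure D1:**
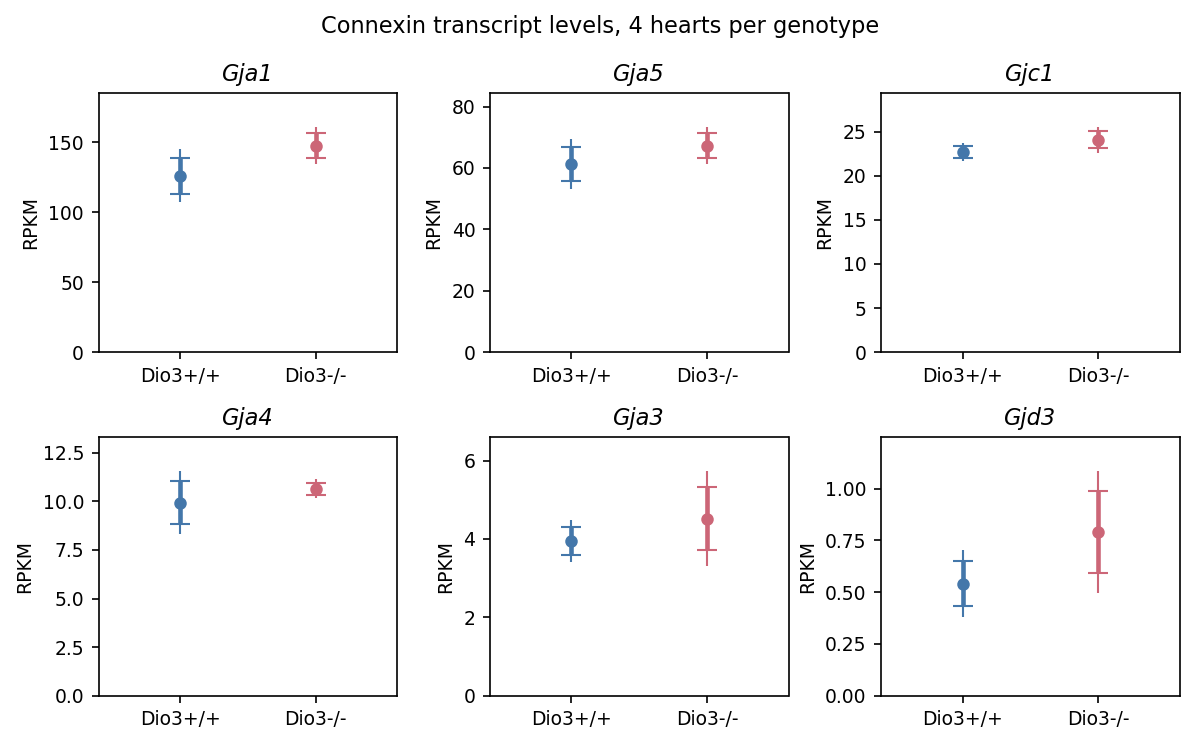
Levels of the 6 connexin genes in RPKM on linear axes that start at 0, one panel per gene. Points are means of 4 hearts, thick bars with caps are SDs, and thin lines are the limits of a single heart, computed from the rounded CVs. The *Dio3*-/- mean is the higher in each panel, and the thin lines of both genotypes overlap in all 6.

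The order of the levels was the same in both genotypes: *Gja1*, *Gja5*, *Gjc1*, *Gja4*, *Gja3* and *Gjd3*. On the RPKM scale, which accounts for transcript length, *Gja1* was 2.05 times as high as *Gja5* in wild-type and 2.19 times in *Dio3*-/- hearts. *Gja5* was 2.70 and 2.79 times as high as *Gjc1*, *Gjc1* 2.28 and 2.26 times as high as *Gja4*, and *Gja4* 2.52 and 2.36 times as high as *Gja3*. Neighbors in this order were separated by more than the spread between hearts. In each genotype the limits of single hearts left no overlap between any of them, including *Gja3* and *Gjd3*, which differed 7.31-fold in wild-type and 5.72-fold in *Dio3*-/- hearts.

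The makeup of the connexin pool also differed little between genotypes. *Gja1* supplied 56.1% of the summed level of the 6 genes in wild-type and 57.9% in *Dio3*-/- hearts. *Gja5* supplied 27.3% and 26.4%, *Gjc1* 10.1% and 9.45%, and *Gja4* 4.43% and 4.18%. *Gja3* and *Gjd3* together with these made sums of 224.16 RPKM in wild-type and 254.51 RPKM in *Dio3*-/- hearts. These shares come from genotype means, have no error of their own and were not tested. Whether fewer cells of a type or less RNA per cell sets such a level cannot be told apart in whole hearts.

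The other transcript rows of the connexins gave the same picture. There were 17 rows for the 6 genes, of which 16 were tested, and all 17 had a higher mean in *Dio3*-/- hearts, with 0 called. The 7 rows of *Gja1* ran from 114.75 to 125.81 RPKM in wild-type and from 134.37 to 147.29 RPKM in *Dio3*-/- hearts, with ratios from 1.168 to 1.171 and adjusted *P* values from 0.144 to 0.150. The 4 rows of *Gjc1* ran from 18.09 to 22.67 RPKM and from 19.19 to 24.06 RPKM, with ratios from 1.060 to 1.061. The 2 rows of *Gja5* had ratios of 1.08 and 1.10. Rows of one gene share most of their sequence and are not separate evidence.

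For all 5 tested connexins the 95% interval stayed within a 1.5-fold change in either direction. Their median CVs were 0.09 in wild-type and 0.06 in *Dio3*-/- hearts, the same medians as over all genes tested. Single connexins differed in spread. In wild-type hearts 3.41% of all genes tested had a lower CV than *Gjc1*, and in *Dio3*-/- hearts 92.5% had a lower CV than *Gja3*. Genotypes that could not overlap between single hearts were found for 5.49% of all genes tested, 4.8% with the higher level in *Dio3*-/- hearts, and for 0 of the 6 connexins. With each CV raised by 0.005, the count over all genes fell from 804 to 579.

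**Figure D2:**
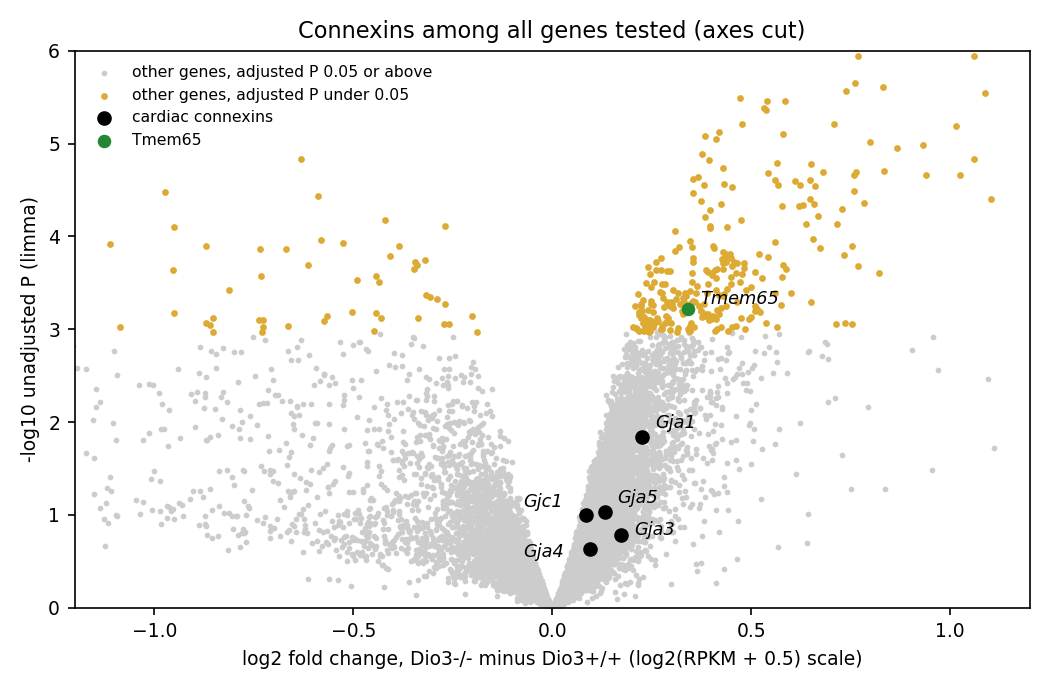
Log2 fold change (*Dio3*-/- minus *Dio3*+/+) on the horizontal axis against -log10 of the unadjusted limma *P* value for all 14657 genes tested, of which 122 lie outside the axes. The 5 tested connexins (black) sit to the right of 0 and below the genes called at an adjusted *P* under 0.05 (yellow), with *Gja1* the highest of them, and *Tmem65* (green) lies among the called genes.

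The rest of the gap junction family was mostly below the limit in these hearts. Of 17 other connexin and pannexin genes, 12 were below the limit in both genotypes, 5 were tested and 0 were called by limma (1, *Gjb2*, at an unadjusted *P* value under 0.05). *Panx1*, which encodes a channel protein that does not form gap junctions in most cells, averaged 6.92 RPKM (CV 0.13) in wild-type and 6.44 RPKM (CV 0.12) in *Dio3*-/- hearts (log2 fold change -0.10, adjusted *P* = 0.676 by limma). *Gjc3* averaged 4.07 and 3.96 RPKM, *Panx2* 2.81 and 2.67 RPKM, and *Gje1* 1.26 and 1.25 RPKM. Their log2 fold changes of -0.04, -0.06 and -0.01 had intervals that include 0.

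*Gjb2*, which encodes connexin 26, an epithelial connexin, was uneven among *Dio3*+/+ hearts. Its mean was 2.14 RPKM (CV 1.38) in wild-type and 0.27 RPKM (CV 0.54) in *Dio3*-/- hearts. Among 4 values that are not negative, a CV of this size, lowered by its largest rounding error of 0.005, puts at least 72.9% of the genotype's total in the highest *Dio3*+/+ heart. The log2 fold change was -1.78 (SE 0.66, 95% interval -3.25 to -0.31) with an adjusted *P* of 0.182 by limma. *Gjb6*, *Gjd4* and *Panx3*, all below the limit, had the same unevenness, with at least 67.3%, 75.6% and 77.1% of the *Dio3*+/+ total in 1 heart. *Gjb1*, the connexin of hepatocytes, was uneven in both genotypes, with a mean of 0.02 RPKM in wild-type and 0.35 RPKM in *Dio3*-/- hearts and at least 61.6% of the latter total in 1 heart.

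Some markers of other tissues were uneven in the same genotypes. *Ibsp*, a bone matrix gene, averaged 11.25 RPKM (CV 1.54) in wild-type and 0.03 RPKM in *Dio3*-/- hearts, with at least 81.0% of the *Dio3*+/+ total in 1 heart, and *Sp7*, a transcription factor of osteoblasts, had at least 80.5%. Of 12 bone and cartilage markers, a list written after the values were seen, 5 were tested and 1 was called, *Ibsp* (lower, adjusted *P* = 0.033 by limma), with summed levels of 38.96 and 16.61 RPKM. These sums include *Ibsp*, and 5 of the 12 markers had a higher mean in *Dio3*-/- hearts. One of these was *Spp1*, with a CV of 0.43 in wild-type hearts. The hepatocyte markers *Alb* and *Afp* had at least 56.7% each of the *Dio3*-/- total in 1 heart. In wild-type hearts their shares were larger, at least 67.3% and 63.4%. Of the 8 hepatocyte markers, 0 were called by limma (8 at an unadjusted *P* value under 0.05). Whether these genes and the low connexins share the same hearts cannot be read from genotype summaries, and their part in the low connexins was not tested.

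**Figure D3:**
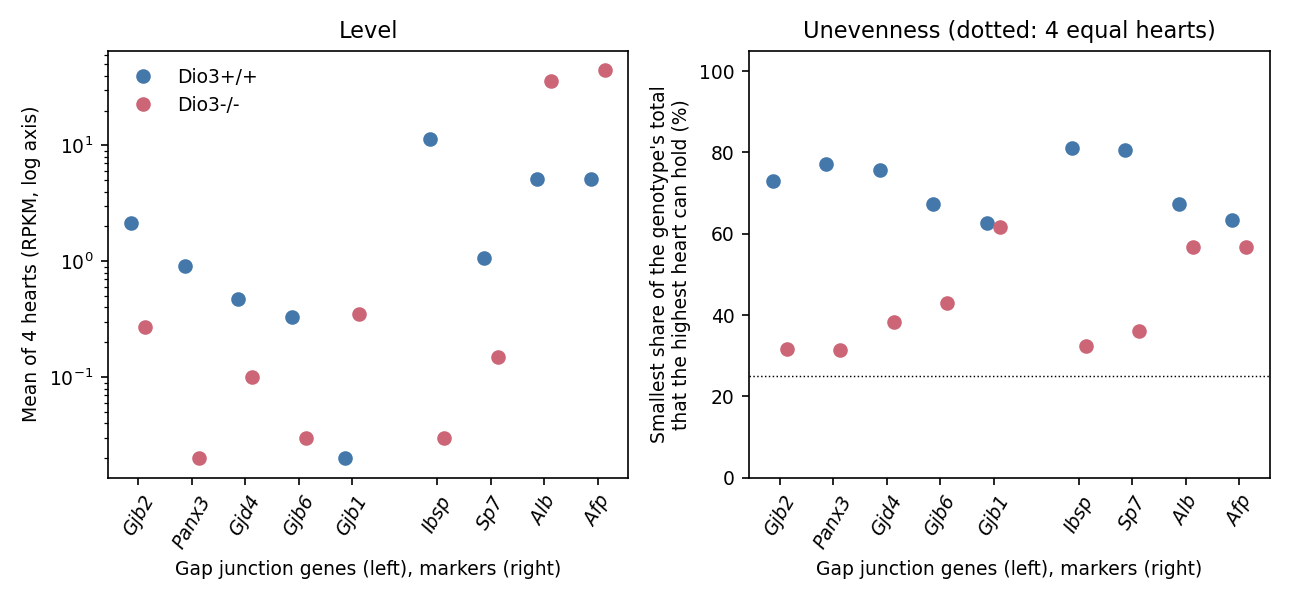
Low gap junction genes beside bone (*Ibsp*, *Sp7*) and hepatocyte (*Alb*, *Afp*) markers. The left panel gives the mean of 4 hearts in RPKM on a log axis, and the right panel the smallest share of a genotype's total that its highest heart can hold, with a dotted line where 4 hearts are equal. *Gjb2*, *Panx3*, *Gjd4* and *Gjb6* are uneven in *Dio3*+/+ hearts, as are *Ibsp* and *Sp7*, and *Gjb1*, *Alb* and *Afp* are uneven in both genotypes.

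Among 13 genes for proteins that bind connexins or govern their assembly and turnover, 1 rose, 0 fell and 12 were not called. Over all genes tested, 1.91% were called higher and 0.382% lower. The median log2 fold change was 0.05. The gene that rose was *Tmem65*, which encodes an intercalated disc protein that binds connexin 43. It averaged 23.93 RPKM (CV 0.10) in wild-type and 30.44 RPKM (CV 0.02) in *Dio3*-/- hearts, a 27.2% higher mean (log2 fold change 0.34, SE 0.07, adjusted *P* = 0.0394 by limma). No *Dio3*+/+ heart could exceed 27.5 RPKM and no *Dio3*-/- heart could fall below 29.5 RPKM, so the genotypes did not overlap. With each CV raised by 0.005 the genotypes of *Tmem65* still could not overlap. Such separation held for 3 of the 13 genes (2 with raised CVs), against 5.49% of all genes tested. The call was lost in 5 of 9 alternatives (no lower limit, no variance trend, unmoderated variances, centering, CVs raised by 0.005), and over all 9 the adjusted *P* ranged from 0.0302 to 0.210.

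*Tjp1* encodes a zonula occludens protein, a scaffold at the edge of gap junction plaques. *Tjp1* averaged 44.43 RPKM (CV 0.05) in wild-type and 51.40 RPKM (CV 0.03) in *Dio3*-/- hearts, with a log2 fold change of 0.21 (SE 0.05) and an adjusted *P* of 0.0595 by limma. Its *Dio3*+/+ hearts could not exceed 47.8 RPKM, below the 49.1 RPKM that was the least possible in *Dio3*-/- hearts. The genotypes thus did not overlap, and *Tjp1* did not pass the test used here. It stayed uncalled in all 9 alternatives, with adjusted *P* values from 0.0502 to 0.156. The authors' own comparison, however, lists *Tjp1* among the differentially expressed genes, higher in *Dio3*-/- hearts, and does not list *Tmem65*. The calls of these genes therefore differ between the published comparison and the test used here. The cause of this difference was not tested.

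The adhesion genes on the partner list, *Cdh2* and *Ctnnb1*, did not pass the test. *Cdh2*, the N-cadherin of cardiomyocytes, averaged 126.61 and 134.80 RPKM (log2 fold change 0.09, adjusted *P* = 0.518 by limma). *Ctnnb1* averaged 200.37 and 199.60 RPKM. The lowest fold change of the list was that of *Nedd4*, a ubiquitin ligase that targets connexin 43 for degradation, at 468.10 and 461.83 RPKM (log2 fold change -0.02).

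**Figure D4:**
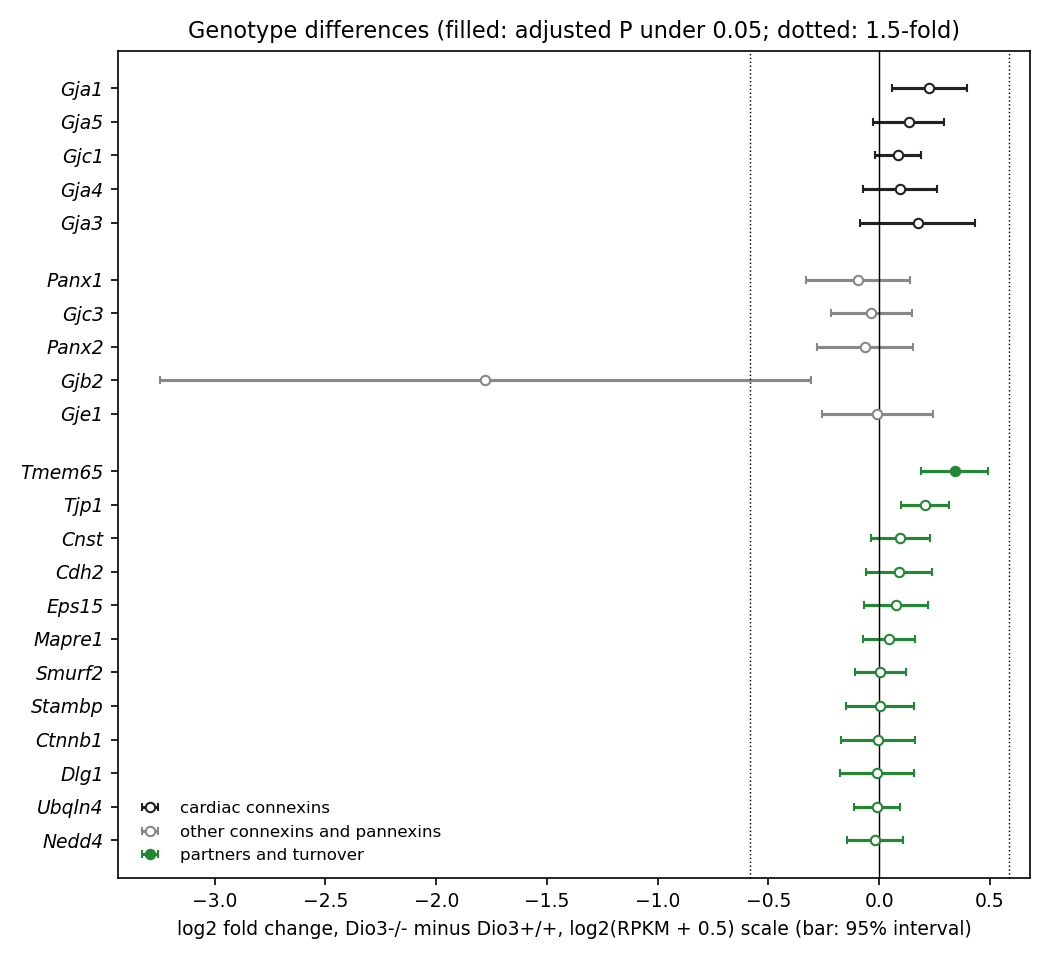
Log2 fold changes (*Dio3*-/- minus *Dio3*+/+) on the log2(RPKM + 0.5) scale with 95% intervals for the 5 tested connexins, 5 other connexins and pannexins, and 12 of the 13 partner genes. Filled points have an adjusted *P* value under 0.05 and dotted lines mark a 1.5-fold change. The intervals of the 5 connexins lie within the dotted lines, and *Tmem65* is the partner gene called.

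Of 10 kinases known to phosphorylate connexins or to act on those kinases, 0 were called by limma (1 at an unadjusted *P* value under 0.05). The fold changes ran from -0.23 for *Src*, whose kinase closes connexin 43 channels (11.72 and 9.95 RPKM, adjusted *P* = 0.307 by limma), to 0.12 for *Akt1* (116.94 and 127.01 RPKM, adjusted *P* = 0.263), on the log2 scale. Of 15 transcription factors that act on connexin genes, 0 were called by limma (2 at an unadjusted *P* value under 0.05), and the median log2 fold change was 0.02. The highest was *Hopx*, at 64.87 RPKM (CV 0.16) and 82.32 RPKM (CV 0.07), with a log2 fold change of 0.34 and an adjusted *P* of 0.120.

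The activators of *Gja5* and *Gja1* transcription did not pass the test. *Nkx2-5* averaged 78.63 and 85.04 RPKM and *Gata4* 82.27 and 91.97 RPKM, and the log2 fold change of *Tbx5* was -0.09. *Tbx2* and *Tbx3*, repressors of *Gja1* and *Gja5* in slowly conducting myocardium, were uneven among hearts. *Tbx3* averaged 10.61 RPKM (CV 0.77) in wild-type and 7.53 RPKM (CV 0.15) in *Dio3*-/- hearts (adjusted *P* = 0.613 by limma), and *Tbx2* 7.58 RPKM (CV 0.60) and 6.24 RPKM (CV 0.42).

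The markers of the cells that carry these connexins were present in both genotypes. Of 7 markers of working cardiomyocytes, *Myh6* (log2 fold change 1.06, adjusted *P* = 0.0013 by limma) and *Ryr2* (0.59, adjusted *P* = 0.0231) rose and 5 were not called. An unadjusted *P* value under 0.05 by limma was found for 5 of the 7, and 6 of the 7 had a higher mean in *Dio3*-/- hearts. Their summed level was 7714.83 RPKM in wild-type and 9174.27 RPKM in *Dio3*-/- hearts. Of 7 trabecular and conduction markers 1 rose and 0 fell, and of 6 sinus node markers 1 rose and 0 fell. In each of these lists 2 markers had an unadjusted *P* value under 0.05 by limma. Among all genes tested, 1.91% were called higher and 19.7% had an unadjusted *P* value under 0.05.

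The remaining lists for heart and vessel cells had no called marker. Of 5 atrial, 4 compact ventricle, 6 endothelial, 7 arterial endothelial and 3 smooth muscle markers tested, 0 were called by limma, and 1, 0, 2, 1 and 1 had an unadjusted *P* value under 0.05. The summed level was 218.96 and 237.28 RPKM for endothelium, 113.56 and 119.60 RPKM for arterial endothelium, 3517.18 and 4152.05 RPKM for compact ventricle and 2406.97 and 2786.82 RPKM for atrial markers. Of 7 fibroblast and epicardial markers, 0 were called (2 at an unadjusted *P* value under 0.05), with sums of 677.06 and 623.12 RPKM. Of 6 erythroid markers, 0 were called higher and 1 was called lower, the embryonic globin gene *Hbb-bh1* (log2 fold change -1.51, adjusted *P* = 0.0468 by limma). All 6 had an unadjusted *P* value under 0.05 by limma, and 0 had a higher mean in *Dio3*-/- hearts. The part of these cell types in the connexin levels was not tested.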

How the data were processed

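RNA from 4 *Dio3*+/+ and 4 *Dio3*-/- fetal hearts underwent rRNA-depleted, single-end RNA sequencing. The authors and a sequencing company aligned reads with NovoAlign 2.08 after FastQC, and the genome build is not given in the sources used here. The authors deposited genotype means per transcript row, read here as RPKM, the unit of the filter in the methods, since the header names none. The authors also deposited a coefficient of variation, a ratio of SD to mean, for each genotype. The deposited fold changes and q values are the authors' own comparison and were not used. The table gives no read totals, so the precision that depth allows cannot be computed from it.

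For each row, log2(RPKM + 0.5) of the genotype means was compared. Its variance was derived from the coefficients of variation and moderated with limma 3.58.1 (R 4.3.3) with a mean-variance trend, with 6 residual and 3.52 prior degrees of freedom. This replaced a limma fit to single hearts, which needs values the table does not hold. Benjamini-Hochberg adjustment ran over 32703 of 51414 rows, those whose mean exceeded 1 RPKM in either genotype. The row with the highest mean stood for a gene. The test was tested on simulated data.

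The members and gene lists were chosen with earlier results of these data known. Genes named were all members, the other connexins and pannexins above the limit, the called, highest and lowest genes of each list, and the genes nearest to *Gja1*. Other genes named (*Dio3*, the sex-linked genes, the connexins and *Panx3* below the limit, and the further genes of the partner, transcription factor and marker lists) were chosen after their values were seen. Promoters came from RefSeq (GRCm38.p6) and motifs were counted with Python 3.11.15. Protein sequences were not used here. Alternatives varied the pseudocount, the limit, the variance trend, the test, the rows, the centering and the rounding of the CV. Values of some genes of the lists are not reported here.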

Additional observations from a re-analysis of the deposited data

How the results depend on the processing

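The 5 tested connexins kept their direction and stayed uncalled in every alternative in which they were tested. The log2 fold change of *Gja1* ranged from 0.19 to 0.23 and its adjusted *P* from 0.120 to 0.295. The count of genes called, 336, was 197 without the lower limit, 27 by Welch's test, 180 after centering on the median log2 ratio of 0.04, and 187 with each coefficient of variation raised by 0.005. Centering changed the share of higher calls from 83.3% to 71.7%. With the transcript rows of a gene averaged, the share of *Gjc1* in the connexin pool was 9.66% in wild-type and 9.05% in *Dio3*-/- hearts, and that of *Gja4* in *Dio3*-/- hearts 4.33%. *Hbb-bh1* lost its call in 5 alternatives, *Ibsp* in 3, and *Myh6* and *Ryr2* by Welch's test alone. The causes of these changes were not tested. No paired analysis was possible because the table holds no value for a single heart, and for the same reason analyses that leave out 1 heart were not run. Intervals cover the spread between these 4 hearts per genotype, and the table gives no read total per heart. The log of a mean stands in for the mean of logs, an approximation that worsens as the spread grows.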

Other observations

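The genes whose pair of genotype means was nearest to that of *Gja1*, by Euclidean distance over the 2 genotypes on the log2(RPKM + 0.5) scale, were *Mrpl42* (125.95 and 145.57 RPKM, distance 0.017), *Cox7a2* (126.50 and 144.23 RPKM, distance 0.031) and *Fam162a* (127.16 and 143.66 RPKM, distance 0.039). With only 2 genotype means per gene, nearness describes level and difference alone.

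*Cacna1g*, a calcium channel gene of nodal and trabecular myocardium, was, like *Tbx3*, uneven among *Dio3*+/+ hearts, at 5.52 RPKM (CV 0.74) against 3.82 RPKM (CV 0.05) in *Dio3*-/- hearts, with at least 38.8% of the *Dio3*+/+ total of *Cacna1g* in 1 heart.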
